A study of Mus musculus with 10 samples.

Results

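Periostin, fibronectin and 5 related secreted proteins of the matrix were examined in mouse skeletal stem and stromal cells by RNA sequencing. The genes were chosen by name: Postn (periostin), its paralog Tgfbi, Fn1 (fibronectin), Tnc (tenascin-C), Thbs1 and Thbs2 (thrombospondins) and Sparc (osteonectin). Each symbol matched 1 row, giving 7 of the 15078 genes in the table, and all 7 passed the filter on low values. The graft BM-MSCs (n = 4) were CD51+CD200+Tomato+ mesenchymal stem cells sorted from the marrow of Postn Cre-ER;tdTomato femurs, which had been placed under the skin of wild-type recipients and collected at 5 months. The recipients received tamoxifen early after transplantation, so Tomato marks cells in which the Postn regulatory sequence was active at that time, and their descendants. Steady-state BM-MSCs (n = 3) and periosteal skeletal stem cells (P-SSCs, n = 3) were CD45-Ter119-CD31-CD51+CD200+ cells from wild-type mice, sorted from marrow and from periosteum. Their labels read host, steady state, and no treatment is stated for them in the sources used here. Each library held RNA from distinct mice, and the names BM-MSC 2+4 and P-SSC 2+5 are those of a pair of mice whose RNA was combined.

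Several features limit the graft group as a model. Postn is used by osteoblasts and fibroblasts as well as by periosteal cells, so Tomato is not a mark of P-SSCs alone. By the allele's name the recombinase sits at the Postn locus itself, so graft cells may carry fewer intact copies of Postn than wild-type cells. The number of intact copies is not given in the sources used here, and its part in the Postn values cannot be told apart from that of the graft. Transplantation, tamoxifen, genotype and the separate origin of the 6 steady-state libraries, which the labels describe as a re-analysis of earlier samples, all coincide with the graft group and cannot be told apart.

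Matricellular proteins are secreted into the matrix, where they bind structural proteins, growth factors and cell receptors more than they bear load. Periostin and its paralog carry fasciclin domains and are well-known products of periosteum, tendon and healing bone, and their genes are classical targets of TGF-beta. Fibronectin assembles into fibrils through integrins and precedes collagen deposition, tenascin-C is abundant in developing and injured bone, and Sparc is a collagen-binding protein that bone-forming stroma makes in large amounts.

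The promoters of Postn and Tnc are shown because Postn regulatory sequence directs the labelling of the graft cells and because Tnc had the opposite order of levels to Postn in the steady-state groups. The stretches are the 150 bases before an annotated RefSeq start (GRCm38.p6), on the gene's strand, with the letters TATAA in capitals.
Postn, chr3:54360957-54361106, plus strand: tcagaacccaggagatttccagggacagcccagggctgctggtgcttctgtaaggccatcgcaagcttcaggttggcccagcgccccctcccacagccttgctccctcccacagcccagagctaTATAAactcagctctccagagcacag
Tnc, chr4:64046937-64047086, minus strand: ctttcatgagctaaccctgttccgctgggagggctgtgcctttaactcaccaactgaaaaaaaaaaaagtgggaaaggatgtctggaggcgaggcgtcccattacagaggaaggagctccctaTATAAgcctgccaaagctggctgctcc
The capitals began 26 bases before the Postn start and 27 bases before the Tnc start. Searched on both strands of the 250 bases before each start, TATAA occurred in 22.8% of 32851 RefSeq promoters. Promoter sequence was at hand for 5 of the 7 genes, at 7 starts. The AP-1 letters TGANTCA (6.75% of promoters) and the TEAD letters GGAATG (12.6%) were in none of these 7 windows. The short SMAD letters CAGAC, present in 42.2% of all promoters, were found upstream of at least 1 start of each of the 5 genes. That share is of single promoters, so it is unlike a count of genes with several starts. The Postn start shown had no match, and the Postn match lay 191 bases before another annotated start. The windows of the 2 Tnc starts overlap and share 1 TATAA match, no match of one motif overlapped a match of another, and a match describes the sequence only.

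Integrins bind several of these proteins through an Arg-Gly-Asp tripeptide, so the coding sequences were searched for codons of that tripeptide in frame, in the longest complete GENCODE M21 coding transcript of each gene (GRCm38). Such codons were found in Fn1, Tgfbi, Thbs1 and Thbs2, and in 7.26% of 21501 genes with a complete coding transcript. None were found in the transcripts of Postn, Tnc and Sparc. The codons are in capitals between 15 coding bases on each side, on the gene's strand.
Fn1 codon 1614, exon 30, chr1:71606731-71606769, minus strand: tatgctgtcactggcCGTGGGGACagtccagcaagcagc
Tgfbi codon 642, exon 15, chr13:56637140-56637178, plus strand: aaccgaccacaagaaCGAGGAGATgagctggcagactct
Thbs1 codon 927, exon 18, chr2:118122674-118122905, plus strand: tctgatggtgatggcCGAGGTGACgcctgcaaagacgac
Thbs2 codon 928, exon 18, chr17:14671469-14673150, minus strand: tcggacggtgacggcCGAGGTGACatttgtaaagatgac
The Thbs1 and Thbs2 stretches are read from spliced transcripts and cross an exon junction, so their coordinates also cover an intron. Fn1 had another in-frame match at codon 2181.

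Libraries held 15415421 to 25223295 reads assigned to genes. Graft libraries detected 9308 to 11674 genes with a read and steady-state libraries 12217 to 13341. Among genes at 100 or more in every other library of its group, a graft library listed 0.898 to 8.78% at 0, with the highest share in graft BM-MSC 2, compared with at most 0.363% in a steady-state library. A value of 0 in a graft library is therefore described as listed at 0. It allows up to 3 reads, or 0.119 to 0.195 ppm of the reads over all libraries, for counting error only. The 4 graft libraries and P-SSC 4 had higher levels of GC-rich genes (51 genes above 65% GC) relative to genes of 50 to 60% GC, by 1.52 to 2.80 on the log2 scale, and the other 5 libraries had lower levels, by -1.81 to -1.51. Marrow stroma markers (Cxcl12, Lepr, Kitl, Adipoq and Vcam1, 5 of 5 in the table) summed to 49167 to 54461 ppm of reads in graft BM-MSCs, 42333 to 65410 in BM-MSCs and 260 to 537 in P-SSCs. Periosteum markers (Ctsk, Prrx1, Pi16, Ly6a and Acta2) summed to 412 to 1002, 239 to 489 and 8139 to 16264 ppm. Pi16, Ly6a and Acta2 carried the P-SSC sum, and Pi16 and Ly6a were the 2 of 5 called lower in the graft than in P-SSCs. Ctsk (5010 to 9680 in graft BM-MSCs and 5001 to 8116 in P-SSCs, as normalized read counts) and Prrx1 overlapped between these groups and did not pass (limma, adjusted p = 0.922 and 0.378).

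Sparc was the highest of the 7 genes in every group when expressed as RPKM (reads per kilobase of exon, scaled to library size). The length is that of all annotated exons of a gene, such as 8702 bases for Postn and 3771 for Tgfbi. It can exceed that of the RNA counted, so the order of genes with near levels depends on it. Behind it, Tnc was next in BM-MSCs and in graft BM-MSCs, and Fn1 was next in P-SSCs. In BM-MSCs Sparc averaged 5154 ± 884 and Tnc 801 ± 135 on this scale (SD, n = 3), and Thbs1, Postn, Thbs2, Tgfbi and Fn1 followed between 30.5 and 12.3 with overlapping ranges for each neighbouring pair. In P-SSCs Sparc averaged 4405 ± 1189 and Fn1 520 ± 108 (SD, n = 3), followed by Tgfbi at 143 ± 60.7 and Postn at 114 ± 11.1, whose ranges overlapped. Thbs2 at 58.6 ± 13.6 lay below Postn in 3 of 3 P-SSC libraries, and Tnc at 29.0 ± 12.8 and Thbs1 at 22.5 ± 15.9 closed the order without being distinct. In graft BM-MSCs the order was Sparc at 2362 ± 739, Tnc at 236 ± 72.9, Thbs1 at 43.7 ± 25.0 and Thbs2 at 18.7 ± 5.98 (SD, n = 4), each above the next in 4 of 4 libraries. Tgfbi, Fn1 and Postn took the last places there, with ranges that all began at 0.

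Of all reads, the 7 genes together took 1.12 ± 0.28% in the 4 graft libraries, 2.66 ± 0.22% in the 3 BM-MSC libraries and 2.51 ± 0.43% in the 3 P-SSC libraries (mean ± SD), and Sparc alone held most of this share. Among the reads of the other 6 genes, Tnc made up 88.4 ± 0.45% in BM-MSCs and 78.9 ± 10.5% in graft BM-MSCs but 2.79 ± 1.55% in P-SSCs. Fn1 made up 2.13 ± 0.92%, 1.99 ± 2.30% and 72.3 ± 2.26% in the same order. The lowest Tnc share in a marrow library, 65.2% in graft BM-MSC 4, was far above the highest in a P-SSC library, 4.55%.

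**Figure D1:**
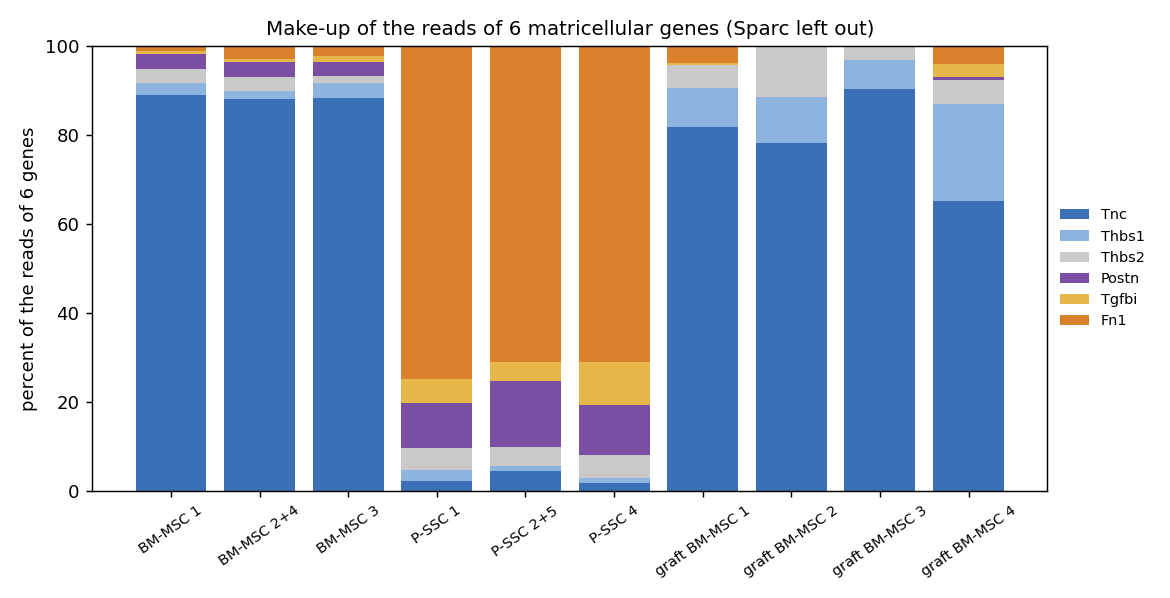
Reads of 6 of the genes (Sparc left out) as a percent of their sum in each library, not divided by gene length; each bar is 1 library. Tnc fills 65.2 to 90.4% of every marrow library, steady-state or graft, and Fn1 fills 70.9 to 74.9% of each P-SSC library.

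Periostin and its paralog were lower in graft BM-MSCs than in P-SSCs, and periostin was also lower there than in BM-MSCs. Values are normalized read counts, the deposited reads per gene divided by a factor for each library. Postn (ENSMUSG00000027750, GRCm38 chr3:54361109-54391037, plus strand) measured 21259, 24829 and 16558 in P-SSC 1, 2+5 and 4. It measured 5041, 4579 and 3757 in BM-MSC 1, 2+4 and 3. In graft BM-MSC 1, 2 and 3 it was listed at 0, and graft BM-MSC 4 held 235, from 272 reads. The 3 groups did not overlap, and the graft mean was 0.281% of the P-SSC mean and 1.32% of the BM-MSC mean. Postn was lower in graft BM-MSCs than in P-SSCs, with a log2 difference of -12.36 (SE 1.66; adjusted p = 0.000535 in limma, after Benjamini and Hochberg), and lower than in BM-MSCs, with -10.14 (SE 1.66, limma, adjusted p = 0.00624). These changes are on the log2(value + 1) scale and depend on the added 1: with 0.1 and 5 they were -14.85 and -10.61 against P-SSCs and -12.63 and -8.40 against BM-MSCs. In edgeR on whole reads Postn differed by -8.37 from P-SSCs (adjusted p = 0.0222) and by -6.25 from BM-MSCs, where the call was lost (adjusted p = 0.0872). With a term for each library's number (the replicate block), both Postn calls were lost. The differences were then -10.47 from P-SSCs and -11.00 from BM-MSCs (limma, adjusted p = 0.0646 and 0.250). In these bulk samples fewer cells of a type and less RNA per cell cannot be told apart.

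Tgfbi (ENSMUSG00000035493, GRCm38 chr13:56609523-56639562, plus strand) encodes a secreted integrin-binding protein. It measured 11376, 7221 and 14431 in P-SSC 1, 2+5 and 4, and 1029, 835 and 1352 in BM-MSC 1, 2+4 and 3. Graft BM-MSC 1 and 4 held 195 and 941, and graft BM-MSC 2 and 3 were listed at 0. Graft and P-SSC libraries did not overlap, while graft BM-MSC 4 lay within the BM-MSC range. The fall against P-SSCs was -9.00 on the log2 scale (SE 2.14, limma, adjusted p = 0.0151) and lost its call without P-SSC 1 (adjusted p = 0.0604), in a fit of those 2 groups alone (adjusted p = 0.0745) and in edgeR (-5.18, adjusted p = 0.0798). The log2 difference from BM-MSCs was -5.67 (SE 2.14, limma, adjusted p = 0.133), and without graft BM-MSC 4 it was -7.50 (adjusted p = 0.0354).

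Fn1 had the widest span between P-SSCs and BM-MSCs of the 7 genes. Fn1 (ENSMUSG00000026193, GRCm38 chr1:71585520-71653200, minus strand) measured 157577, 118758 and 104987 in P-SSC 1, 2+5 and 4. BM-MSC 1, 2+4 and 3 held 1689, 3819 and 2775. Graft BM-MSC 1 and 4 held 1495 and 1327, and graft BM-MSC 2 and 3 were listed at 0. All graft libraries lay below all BM-MSC libraries, but graft BM-MSC 1 was close to BM-MSC 1, and the P-SSC mean was 180-fold above the graft mean. The fall against P-SSCs was -11.70 on the log2 scale (SE 2.50, limma, adjusted p = 0.00840), and its adjusted p was 0.0524 in a fit of those 2 groups alone. With the replicate block this fall was -8.03 and lost its call (limma, adjusted p = 0.175). The log2 difference from BM-MSCs was -6.12 (SE 2.50, limma, adjusted p = 0.158), and it was -0.89 (adjusted p = 0.154) once graft BM-MSC 2 and 3 were left out. Leaving those 2 libraries out was chosen after the values were seen, and it left the falls against P-SSCs at -10.39 for Postn, -4.62 for Tgfbi and -6.47 for Fn1 (limma, adjusted p = 0.00740, 0.00227 and 6.59e-05). An antisense gene, Apol7d, overlaps exons of Fn1 and held 55.4 or less in every library, and strand is not stated for the counting, so reads of the pair cannot be told apart.

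**Figure D2:**
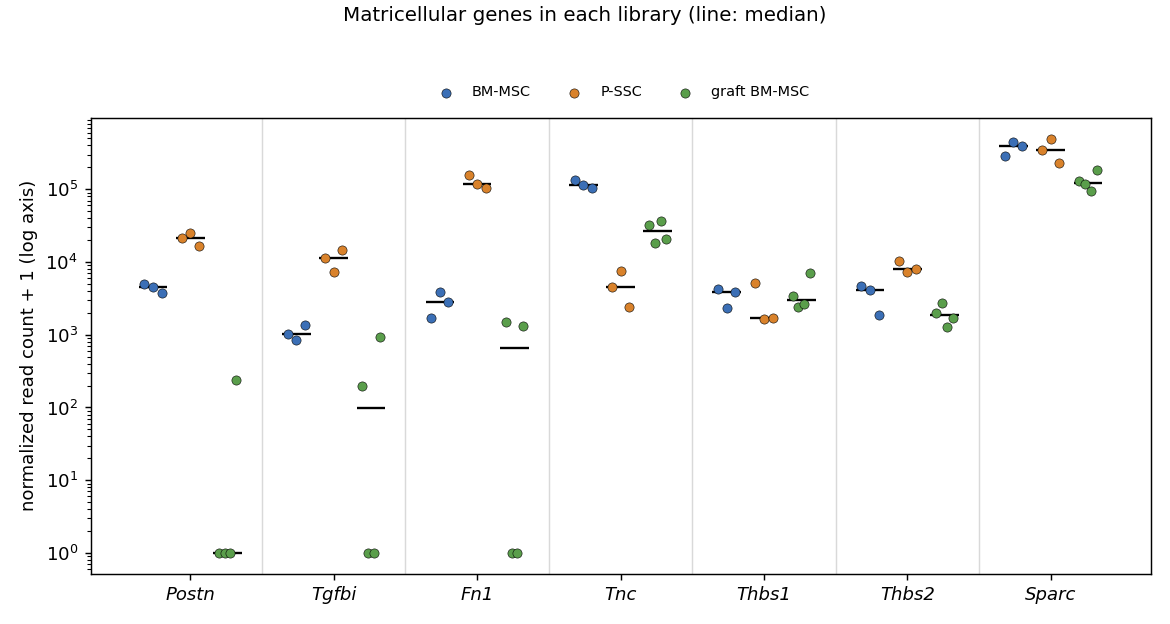
Normalized read count plus 1 on a log axis for the 7 genes; each point is 1 library, coloured by group, and the black line is the group's median. The medians of Postn, Tgfbi and Fn1 are highest in P-SSC and lowest in graft BM-MSC, with points at 1 for graft libraries listed at 0, whereas Tnc is highest in BM-MSC and lowest in P-SSC, and Thbs1 overlaps between all groups.

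Tnc went the other way. Tnc (ENSMUSG00000028364, GRCm38 chr4:63959785-64047015, minus strand) measured 134521, 115302 and 103496 in BM-MSC 1, 2+4 and 3. Graft BM-MSC 1 to 4 held 31952, 18336, 37072 and 21039, and P-SSC 1, 2+5 and 4 held 4556, 7607 and 2437. The 3 groups did not overlap, with the graft libraries between the steady-state groups. Tnc was higher in graft BM-MSCs than in P-SSCs by 2.57 on the log2 scale (SE 0.36, limma, adjusted p = 0.000751) and lower than in BM-MSCs by -2.17 (SE 0.36, limma, adjusted p = 0.00704). Between P-SSCs and BM-MSCs the log2 difference was -4.74 (SE 0.39, limma, adjusted p = 4.66e-05), or 26.7-fold. The ratio of the arithmetic means, BM-MSC over P-SSC, was 24.2. The fall against BM-MSCs was -1.23 (adjusted p = 0.123) after a correction for GC content. The gene 8030451A03Rik overlaps Tnc on the opposite strand and held at most 135 in any library.

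The summed levels of chondrocyte and osteoblast markers were also highest in BM-MSCs, though not each marker was. Chondrocyte markers (Acan, Col2a1, Sox9 and Col9a1, 4 of 4 in the table) summed to 1736 to 3421 ppm in BM-MSCs, 44.5 to 269 in graft BM-MSCs, where 2 of the 4 were at 0 in all libraries, and 8.07 to 68.5 in P-SSCs. Osteoblast markers (Bglap, Bglap2, Sp7, Runx2 and Dmp1) summed to 2006 to 5569, 644 to 3223 and 215 to 1005 ppm in the same order. The sums were carried by Col2a1 and Bglap, while Sox9 was at 114 to 933 in graft BM-MSCs and 23.2 to 65.8 in BM-MSCs, and Runx2 at 823 to 1868 and 420 to 697 (normalized read counts; limma, adjusted p = 0.0946 and 0.135). Their part in the Tnc values was not tested. In P-SSCs, endothelial markers summed to 174 to 327 ppm, tendon markers to 220 to 297 and skeletal muscle markers to 19.2 to 52.5, compared with 0, 0 to 24.4 and 0 in graft BM-MSCs and 1.19 to 4.56, 4.85 to 8.14 and 0 to 0.320 in BM-MSCs. The endothelial sum in P-SSCs was almost all Tek, whereas Cdh5 was at 2.08 to 58.6 normalized read counts and Emcn was listed at 0 in every P-SSC library, below the 24.3 to 81.5 of BM-MSCs (-5.58, limma, adjusted p = 0.00101). Their part in the Fn1, Postn and Tgfbi values was not tested. Among blood cell markers, macrophage and monocyte markers summed to 96.4 to 893 ppm in graft BM-MSCs, 248 to 916 in BM-MSCs and 21.8 to 98.7 in P-SSCs. Platelet markers, which bear on the thrombospondins, summed to 5.14 to 41.6, 14.7 to 93.6 and 10.9 to 31.6 ppm in that order, and in P-SSCs this was mostly Itga2b, with Ppbp and Gp9 listed at 0. Neutrophil markers ranged from 220 to 4647, 1026 to 2015 and 0.258 to 3.81, and red cell markers from 104 to 1839, 2821 to 10885 and 9.60 to 75.0 ppm, and the part of blood cells in the values of the 7 genes was not tested.

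Thbs1 and Thbs2 encode trimeric calcium-binding glycoproteins that restrain angiogenesis through CD36 and CD47. Thbs1 (ENSMUSG00000040152, GRCm38 chr2:118111876-118127133, plus strand) measured 3421, 2382, 2666 and 7040 in graft BM-MSC 1 to 4. BM-MSC 1, 2+4 and 3 held 4260, 2319 and 3831, and P-SSC 1, 2+5 and 4 held 5192, 1667 and 1686. The groups overlapped in every comparison, and no difference passed the test. The 95% confidence interval of the log2 difference was -0.55 to 1.60 between graft BM-MSCs and P-SSCs. It was -1.01 to 1.14 between graft BM-MSCs and BM-MSCs, and -1.61 to 0.69 between P-SSCs and BM-MSCs. Differences within these intervals were not excluded.

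Thbs2 shared the direction of Postn over a smaller range. Thbs2 (ENSMUSG00000023885, GRCm38 chr17:14665500-14694235, minus strand) measured 10474, 7178 and 7907 in P-SSC 1, 2+5 and 4, and 4748, 4120 and 1894 in BM-MSC 1, 2+4 and 3. Graft BM-MSC 1 to 4 held 1976, 2703, 1293 and 1703. Both marrow groups lay below all P-SSC libraries and overlapped each other. Thbs2 fell against P-SSCs by -2.18 on the log2 scale (SE 0.35, limma, adjusted p = 0.00173), and the call was lost after a correction for GC content (-1.34, adjusted p = 0.0721). Its log2 difference was -0.85 between graft BM-MSCs and BM-MSCs (limma, adjusted p = 0.167) and 1.33 between P-SSCs and BM-MSCs (limma, adjusted p = 0.0550).

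Sparc separated the graft from both steady-state groups, which did not differ detectably from each other. Sparc (ENSMUSG00000018593, GRCm38 chr11:55394500-55423183, minus strand) measured 129212, 116581, 94430 and 183738 in graft BM-MSC 1 to 4. BM-MSC 1, 2+4 and 3 held 283864, 447651 and 388496, and P-SSC 1, 2+5 and 4 held 341733, 495140 and 232514. All graft values were below all steady-state values, although graft BM-MSC 4 and P-SSC 4 were near each other. Sparc fell by -1.42 on the log2 scale against P-SSCs (SE 0.29, limma, adjusted p = 0.00631) and by -1.53 against BM-MSCs (SE 0.29, limma, adjusted p = 0.0120). The sizes depended on the scaling of the libraries: after a correction for GC content they were -0.45 (adjusted p = 0.482) and -0.59 (adjusted p = 0.422), and after quantile normalization -0.74 (adjusted p = 0.142) and -0.41 (adjusted p = 0.448). Leaving out graft BM-MSC 2 and 3 gave -1.14 (adjusted p = 0.102) and -1.25 (adjusted p = 0.110), and against BM-MSCs the call was also lost without BM-MSC 2+4 (adjusted p = 0.0612) or BM-MSC 3 (adjusted p = 0.0541). Between P-SSCs and BM-MSCs the 95% confidence interval of the log2 difference was -0.79 to 0.57.

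Counted together, 6 of the 7 genes differed between graft BM-MSCs and P-SSCs at an adjusted p under 0.05, where 18.1% of all 13644 genes tested did. Of these, 5 were lower in the graft (12.0% of all genes) and 1, Tnc, was higher (6.08%). The groups did not overlap for 6 of the 7, compared with 26.6% of all genes. The median log2 change of the 7 genes was -2.18 beside -0.47 for all genes tested. Between graft BM-MSCs and BM-MSCs 3 of the 7 differed (7.67% of all genes), all lower (5.06%) and none higher (2.61%), and at an unadjusted p under 0.05 in limma 6 of the 7 passed (25.5% of all genes). The 3 with an adjusted p under 0.05 were Postn, Tnc and Sparc, and 4 of the 7, with Fn1 added, did not overlap (25.0% of all genes). The median was -2.17 beside -0.53 for all genes.

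Between P-SSCs and BM-MSCs only Tnc differed, 1 of the 7 (9.15% of all genes), as a lower value in P-SSCs (4.58%), and none was higher (4.57%), while at an unadjusted p under 0.05 in limma 2 of the 7 passed, Tnc and Thbs2 (18.7% of all genes). The groups nevertheless did not overlap for 5 of the 7, compared with 30.9% of all genes: Postn, Tgfbi, Fn1 and Thbs2 were higher and Tnc was lower in every P-SSC library. The median was 1.33 beside 0.00 for all genes. The log2 differences of Postn, Tgfbi and Fn1 were 2.22, 3.33 and 5.58 (limma, adjusted p = 0.687, 0.591 and 0.308), in a fit whose shared estimate of the spread includes the graft libraries listed at 0. A fit of the P-SSC and BM-MSC libraries alone gave the same differences with adjusted p = 0.00184, 0.00167 and 0.000654, and called 4 of the 7 genes, where it called 13.6% of all genes. In P-SSCs the mean of Fn1 was 46.0-fold, of Tgfbi 10.3-fold and of Postn 4.68-fold the BM-MSC mean. The 2 comparisons with graft BM-MSCs share the graft libraries, and each steady-state group also serves in 2 comparisons.

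**Figure D3:**
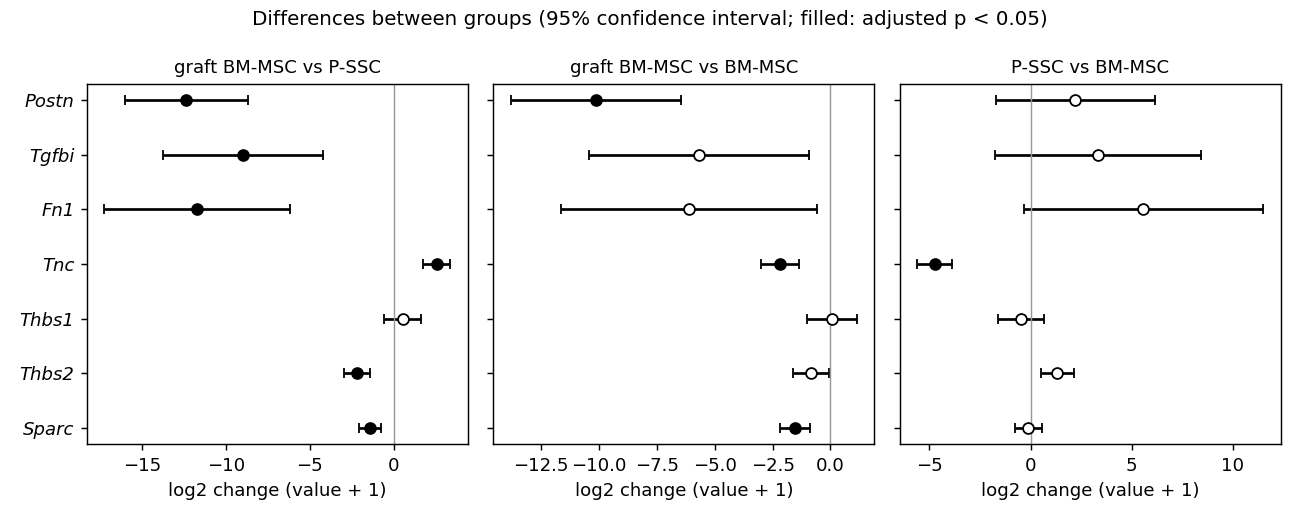
Log2 differences between groups on the log2(value + 1) scale for the 7 genes, with 95% confidence intervals from the limma fit over all 10 libraries, not adjusted for the number of genes; filled points have an adjusted p under 0.05. In graft BM-MSC against P-SSC only Thbs1 is open and only Tnc is filled on the positive side; in P-SSC against BM-MSC only Tnc is filled, at -4.74.

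P-SSC 4 is the one P-SSC library whose GC-rich genes were high, as in the graft, so it can be set beside the graft libraries within that class, as 1 library with no test. It held 16558 for Postn, 14431 for Tgfbi and 104987 for Fn1, compared with at most 235, 941 and 1495 in a graft library. It held 2437 for Tnc beside at least 18336, 7907 for Thbs2 beside at most 2703, and 232514 for Sparc beside at most 183738. The direction in each of these 6 genes was that of the whole groups. This was fixed in advance, because the graft and P-SSC libraries do not overlap for any of these 6 genes. It therefore says nothing further about the part of GC class, which was not tested by it. No BM-MSC library was in that class, so GC class and group cannot be told apart for graft BM-MSCs against BM-MSCs.

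Base composition was taken from the longest GENCODE M21 transcript of each gene, which need not be the transcript counted. Postn is at 36.3% GC, the other 6 lie between 48.4 and 53.5%, and the median of the genes tested is 49.7%. With the library GC class as a covariate, 2 of the 7 genes (7.92% of all genes), Postn (-12.05, limma, adjusted p = 0.0283) and Tnc (3.41, limma, adjusted p = 0.00206), differed between graft BM-MSCs and P-SSCs. None of the 7 passed between graft BM-MSCs and BM-MSCs (0.293% of all genes), where Postn was at -9.67 (limma, adjusted p = 0.401).

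The genes whose log2 values were most like each member's over the 10 libraries were ranked by Pearson's r among 9545 genes, as a description over libraries that share groups and depth. Tgfbi was closest to Tgfb2, which encodes a TGF-beta ligand (r = 0.995), then to Hspa12b (0.991) and Fn1 (0.985). Graft BM-MSC 2 and 3 were listed at 0 for Tgfbi, Tgfb2 and Fn1 alike. These shared values of 0 weigh in r, and shared regulation was not tested. Fn1 was closest to Hspa12b (0.992), Adgrd1 (0.989) and Tgfbi (0.985). Postn was closest to Rbbp5 (0.990), Tctn3 (0.989) and Fxyd6 (0.983). Tnc was closest to the actin-binding gene Cnn2 (0.992), the glycolytic gene Pfkl (0.974) and Ibsp, a bone matrix sialoprotein (0.973). Sparc was closest to Cs (0.992), Pigt (0.988) and Loxl3 (0.983), and Thbs2 to Fosl2 (0.967), Scin (0.965) and Pls3 (0.962). The highest values for Thbs1, with Tgs1 (0.870), Pygm (0.862) and Pign (0.804), were the lowest of the 7 sets.

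Beyond the 7 genes, 20 of 23 other matricellular genes were tested, and they moved in both directions. Against P-SSCs 9 were lower (12.0% of all genes) and 5 higher (6.08%) in graft BM-MSCs, and 6 did not pass (median -1.52, beside -0.47 for all genes). Thbs4 and Tnxb, a thrombospondin and a tenascin of tendon and loose connective tissue, were listed at 0 in all graft libraries. Their P-SSC means were 6593-fold and 3590-fold above a limit of 3 reads in a graft library, which allows for counting error only. Fbln2, an elastic fibre protein, fell by -14.09 (SE 1.85, limma, adjusted p = 0.000459), and Sparcl1, a paralog of Sparc, by -11.21 (SE 1.98, limma, adjusted p = 0.00285), both from P-SSC means of 69991 and 6905. Against BM-MSCs 1 was higher (2.61% of all genes), 2 were lower (5.06%) and the other 17 did not pass (median -0.11). Smoc1, a relative of Sparc, rose by 2.40 (SE 0.51, limma, adjusted p = 0.0202). Ccn5 fell by -1.64 (limma, adjusted p = 0.0466) and Spp1, or osteopontin, by -1.05 (limma, adjusted p = 0.0329). In P-SSCs against BM-MSCs 8 were higher (4.57% of all genes), 4 lower (4.58%) and 8 did not pass (median 1.57, beside 0.00). Tnxb, Thbs4, Ccn3 and Fbln2 were higher by 13.06, 12.09, 11.71 and 9.61 (limma, adjusted p = 4.34e-05, 0.000201, 0.00855 and 0.0101).

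Of the receptors that bind these proteins, 19 of 20 were tested. Against P-SSCs 5 were lower (12.0% of all genes) and 1 higher (6.08%) in graft BM-MSCs and 13 did not pass (median -0.01). Itga5, the alpha chain of the main fibronectin receptor, fell by -2.78 (SE 0.40, limma, adjusted p = 0.000833), Itga11, a collagen receptor chain, by -2.53 (adjusted p = 8.26e-05) and Ddr2, a collagen receptor kinase, by -2.90 (adjusted p = 0.0391). Sdc1, a heparan sulphate proteoglycan that binds fibronectin and tenascin-C, rose by 4.95 (SE 0.61, limma, adjusted p = 0.000314). Against BM-MSCs 2 receptors were higher (2.61% of all genes), 2 lower (5.06%) and 15 did not pass (median -0.20). The higher were Itgb5 by 2.60 (limma, adjusted p = 0.00456) and Cd47, a thrombospondin receptor, by 2.43 (limma, adjusted p = 0.0238). The lower were Egfr by -1.77 (limma, adjusted p = 0.00258) and Itga11 by -1.27 (limma, adjusted p = 0.0132). In P-SSC 4, which shares the GC class of the graft, Itgb5 was at 4423 and Cd47 at 6765. These lay within the graft ranges of 3761 to 5833 and 4914 to 8932. P-SSC 1 and 2+5 held 1457 and 1641 for Itgb5, and 1395 and 1301 for Cd47. The part of GC class in the Itgb5 and Cd47 values was not tested. In P-SSCs against BM-MSCs 4 were higher (4.57% of all genes). Among them were Itga5 (1.56, limma, adjusted p = 0.0480), Itgb5 (1.55, adjusted p = 0.0435) and the endocytic receptor Lrp1 (1.41, adjusted p = 0.0154). Sdc1 was the 1 lower receptor (4.58% of all genes; -4.67, limma, adjusted p = 0.000907), and the remaining 14 did not pass (median 0.63).

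Of 20 collagens and enzymes and proteoglycans that assemble with these proteins, 14 were lower in the graft, 1 higher and 5 not called against P-SSCs (median -1.73), where 12.0% of all genes were lower. Against BM-MSCs 7 were lower, none higher and 13 not called (median -0.98), where 5.06% of all genes were lower. Col3a1 and Dcn (decorin) fell by -5.66 and -4.68 against P-SSCs (limma, adjusted p = 0.000117 and 3.21e-06). Col1a1, the partner that periostin and fibronectin bind in bone, fell by -4.17 against P-SSCs (SE 0.47, limma, adjusted p = 0.000202) and by -5.48 against BM-MSCs (SE 0.47, limma, adjusted p = 0.000799). Against BM-MSCs Col1a2, Col5a2 and the collagen chaperone Serpinh1 fell by -3.38, -2.03 and -1.87 (limma, adjusted p = 0.00123, 0.0102 and 0.00151). Lox, the cross-linking enzyme that periostin is known to help activate, rose by 3.64 against P-SSCs (SE 0.80, limma, adjusted p = 0.00986). In P-SSCs against BM-MSCs 5 were higher (4.57% of all genes), 1 was lower (4.58%) and 14 did not pass (median 0.65). Among the higher were Col3a1, Dcn, Vcan and Col6a3, by 4.70, 3.65, 3.33 and 2.66 (limma, adjusted p = 0.000677, 3.13e-05, 0.00690 and 0.000341).

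Most TGF-beta genes were not called. All 14 were tested. In graft BM-MSCs against P-SSCs 2 were higher (6.08% of all genes), 2 lower (12.0%) and 10 not called (median 0.15). Against BM-MSCs 1 was higher (2.61% of all genes), none lower (5.06%) and 13 not called (median -0.03). In P-SSCs against BM-MSCs 1 was higher (4.57% of all genes), 1 lower (4.58%) and 12 not called (median 0.52). Tgfb2 and the receptor Tgfbr2 fell against P-SSCs by -6.25 and -2.32 (limma, adjusted p = 0.0427 and 0.00840). Ltbp2, a latent TGF-beta binding protein relative, and Smad4, the common signal transducer, rose by 4.19 and 3.04 (limma, adjusted p = 0.00672 and 0.00187). Smad4 also rose against BM-MSCs by 3.61 (SE 0.50, limma, adjusted p = 0.00301). In P-SSCs against BM-MSCs Tgfbr2 was higher by 2.59 and Ltbp2 lower by -5.04 (limma, adjusted p = 0.00977 and 0.00502).

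**Figure D4:**
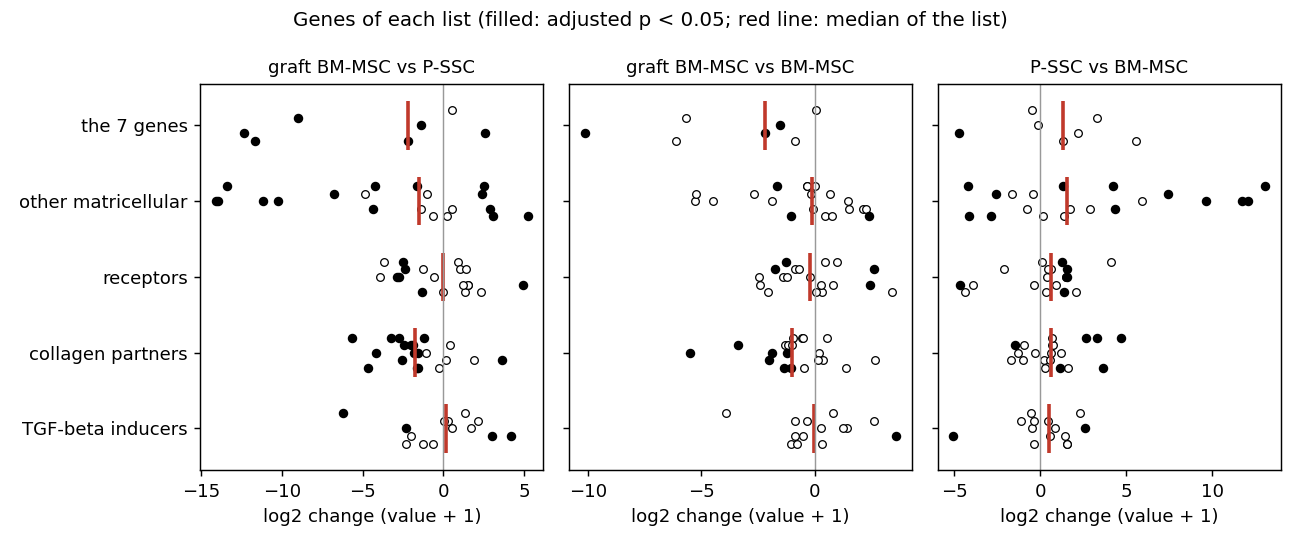
Log2 differences on the log2(value + 1) scale for the 7 genes and the 4 lists, in 3 comparisons; each point is 1 gene tested, filled where the adjusted p is under 0.05, and the red line is the list's median. The collagen partners lie mostly on the negative side in graft BM-MSC against P-SSC (14 of 20 lower), and the other matricellular genes spread to both sides (9 lower, 5 higher).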

How the data were processed

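The deposited table held normalized read counts (coverage signal per gene) for 10 libraries. Per the labels and methods, the authors aligned reads with STAR, counted reads per gene with featureCounts (Subread 1.4.6) and divided by DESeq2 (1.26.0) size factors. The processing notes name GRCm39 and STAR 2.5, while the methods name GRCm38 and another STAR version. The annotation release, strand setting and filters are not given in the sources used here. Coordinates are from GENCODE M21 and RefSeq on GRCm38. Whole reads were recovered from the steps between values (100% whole within 0.01). These gave 15415421 to 25223295 reads per library.

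Differences were tested with limma 3.58.1 (R 4.3.3) on log2(value + 1) over all 10 libraries and 13644 genes with a mean of at least 10, with Benjamini-Hochberg adjustment over all genes. The fit was tested on simulated data. Alternatives were edgeR 4.0.16 and DESeq2 1.42.0 on whole reads, other pseudocounts, filters, scalings, GC corrections, thresholds and left-out libraries. The 7 genes and the 4 lists were chosen with earlier results of these data known. Named genes were the 7, from each list up to 4 per comparison that passed 0.05, ranked by size of change, with a mean of 100 or more, and the 3 most alike in pattern to each of the 7. Reads per kilobase used the length of all GENCODE M21 exons of a gene, overlaps counted once.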

Additional observations from a re-analysis of the deposited data

Results flagged for a closer look

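Postn in graft BM-MSC 4 measured 235 normalized read counts, whereas the other 3 graft libraries were listed at 0. It stands apart by its gap to the other libraries, which equals the whole range whenever the other 3 values are tied, so this is a description and no test. The same library also had the highest Tgfbi, Thbs1 and Sparc values of the graft group (941, 7040 and 183738).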

How the results depend on the processing

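Of 546 values of the 7 genes under the alternatives, 483 kept direction and call, 40 lost the call, 12 gained it and 11 changed sign, and none of the sign changes was in a called value. Counts over all genes, 13644 unless given, are in brackets. Against P-SSCs, 6 of the 7 genes differed (2464). The replicate block gave 2, Tnc and Thbs2 (269), and the library GC class as a covariate gave 2 (1081). GC correction with the replicate block gave 1 (399 of 13622), and leaving out each library gave 5 to 6 (1583 to 3005). Against BM-MSCs, 3 differed (1046), but 0 with the replicate block (3) and 0 with the GC class (40). GC correction gave 1 (1229 of 13622), block and correction together gave 0 (3 of 13622), and leaving out each library gave 2 to 4 (476 to 1584). Between P-SSCs and BM-MSCs, 1 differed (1248). A pseudocount of 5 gave 2 (1366), a mean of at least 100 gave 2 (896 of 9546) and DESeq2 gave 2 (1515). Only those 2 groups gave 4 (1852), and leaving out graft BM-MSC 2 and 3 gave 4 (1685). Leaving out each library gave 1 to 2 (917 to 1495), the second gene being Thbs2 without graft BM-MSC 2 and Postn without graft BM-MSC 4. Whether libraries of the same number came from the same mice is not stated. Deviations of libraries with identical numbers correlated between -0.0191 and 0.0295. BM-MSC 2+4 and P-SSC 2+5, which share the number 2, correlated at 0.0811, and BM-MSC 1 and P-SSC 4, which share none, at 0.0698. With 3 or 4 libraries a group, these values cannot decide it. The causes of the changed counts were not tested, other than that fits of fewer libraries or with more terms leave fewer degrees of freedom.

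Signs changed for Thbs1 in graft BM-MSC minus BM-MSC (-0.070 with median centring, -0.058 with the replicate block, -0.27 to 0.25 on leaving out each library, below 0 without graft BM-MSC 4 or BM-MSC 2+4) and for Thbs2 there (0.0064 with GC correction). In P-SSC minus BM-MSC they changed for Sparc (0.33 with quantile normalization, 0.17 with the GC class, -0.38 to 0.17 on leaving out each library, above 0 without BM-MSC 2+4 or P-SSC 4) and Postn (-0.53 with the replicate block, -0.015 with GC correction and the block). Of 1092 values of the other named genes, 891 kept the call and 201 lost it. With the replicate block, the lists' called genes went from 14, 6, 15 and 4 to 5, 3, 3 and 1 against P-SSCs (other matricellular, receptors, collagen partners, TGF-beta), from 3, 4, 7 and 1 to 0, 0, 0 and 0 against BM-MSCs, and from 12, 5, 6 and 2 to 1, 0, 0 and 1 between P-SSCs and BM-MSCs. All genes tested called 2464, 1046 and 1248 in these comparisons, and 269, 3 and 54 with the block. Quantile normalization moved the median of all genes from -0.47 to -0.02 against P-SSCs and from -0.53 to -0.17 against BM-MSCs. Its calls split into 1247 higher and 1241 lower against P-SSCs (830 and 1634 as reported) and 588 and 435 against BM-MSCs (356 and 690 as reported). GC correction split them into 1567 and 985, and 877 and 352, and called 9 collagen partners against P-SSCs and 4 against BM-MSCs. In edgeR the 3 comparisons called 1531, 316 and 619 genes, and in DESeq2 2908, 1947 and 1515. The limit of 3 reads in a library for a value of 0 allows for counting error only.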
